A study of Mus musculus with 8 samples.

Results

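The comparison described here set tumours of passage 2 that met RANK-Fc for the first time in that passage against tumours of passage 1 grown under RANK-Fc, so that both groups were under the drug and differed in passage. Its members were chosen by their treatment labels alone: 3 tumours labelled CT-FC, CT_Fc or CT_FC of passage 2 (animals c633, c635 and c646) and 3 tumours labelled FC or Fc of passage 1 (animals c558, c567 and c559), that is 6 of the 16 tumours measured. All grew from pieces of MMTV-PyMT mammary tumour, in which the MMTV promoter drives the polyoma middle T antigen in mammary epithelium, placed orthotopically into wild type FVB mice. Both groups received RANK-Fc, a soluble decoy that binds RANK ligand, at 10 mg/kg into the peritoneum 3 times per week, and the labels call it adjuvant treatment in both. That the passage 2 tumours came from a line left without RANK-Fc in passage 1 is a reading of the code CT in their labels, which do not say from which passage 1 tumour each one grew. For side by side values, the control tumours of passage 2 (2) and of passage 1 (2) and the tumours given RANK-Fc in both passages (3) were used; what the control mice received is not given in the sources used here, and neither are the ages of the mice. Each tumour came from a different animal, and where tumours of a passage share a parent tumour the p-values measure only the spread between these transplants.

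MMTV-PyMT tumours are luminal in origin, and transplanting their pieces from mouse to mouse carries both cancer cells and stroma into a new host. RANK is a receptor of the tumour necrosis factor receptor family that drives the progesterone-dependent expansion of mammary epithelium, and its ligand has a natural decoy, osteoprotegerin. Mammary epithelium of the secretory lineage makes caseins and other milk proteins under prolactin and STAT5, while secretoglobins, Pip and demilune cell proteins are secreted by exocrine glands such as the salivary and lacrimal glands. Hypoxia-inducible factors raise glucose uptake, glycolysis and the shutdown of pyruvate entry into mitochondria.

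Expression was read on 8 Agilent arrays with 2 colours, 1 tumour in each colour. Values are log2 intensities after background correction and normalisation, differences are passage 2 first-treated minus passage 1 RANK-Fc from a limma fit over all 16 tumours with dye as a term, and a gene was called at an adjusted p under 0.05 over the 14131 genes tested. Because the fit removes the dye effect and weights the 2 colours of an array, a difference can depart slightly from that of the plain means. Between 47.5% and 56.5% of the spots of a channel were well above background, and no spot was saturated. Each group held 1 tumour in Cy5 and 2 in Cy3. All arrays lay on 1 slide, in 2 rows of positions: the 3 passage 1 tumours and c633 in row 2, c635 and c646 in row 1. The luminal markers Epcam, Krt8 and Krt18 were well above background in all 6 tumours, with Epcam between 11.81 and 12.13 in the passage 2 tumours and between 11.92 and 12.29 in the passage 1 tumours.

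In the passage 2 tumours, 891 of the genes tested were called (6.31%): 325 were higher (2.3%) and all the others were lower (4.01%). Secretory gland proteins led the lower genes, and caseins, the mucin Muc4 and genes of the hypoxia response stood among the higher ones. Most called genes differed by less than 1 on the log2 scale: 104 were higher and 204 were lower by more than that, and 24 and 57 by more than 2. The median over all genes was 0.01, and 51.5% of genes had a positive difference. Of the 891, 315 higher and 556 lower genes had no overlap between the groups, against 11.9% and 13.8% of all genes that did not overlap in these directions. Calls that held whichever single tumour was left out numbered 213, of which 63 were higher and 150 lower. The count of calls was 382 without c635, 473 without c646, 408 without c558, 279 without c567, 539 without c559 and 1056 without c633. It was 443 when only the compared tumours were fitted, and 0 with log ratios alone, where 1413 genes had an unadjusted p under 0.05 in limma. Log ratios give 1 value for each of the 8 arrays, which leaves far fewer residual degrees of freedom than the 9 of the main fit. With the position row on the slide as a term the count of calls was 316, of which 313 were among the 891. With each channel centred on its median in place of the full normalisation, 410 genes were called, of which 25.6% were higher, against 36.5% under the full normalisation.

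The 3 passage 2 tumours were less alike than the 3 of passage 1. The correlation of log2 intensities across genes was 0.974 to 0.981 among the passage 2 tumours and 0.987 to 0.993 among the passage 1 tumours (genes are not independent replicates). On the first principal component of the 6 tumours, which held 57.1% of the variance, the passage 2 tumours scored -5.96 (c633), -41.79 (c635) and -28.52 (c646), against 15.12, 39.56 and 21.59 for the passage 1 tumours c558, c567 and c559. Tumour c633 therefore lay nearest to passage 1. It is also the passage 2 tumour that shares a slide row with passage 1 and an array with c558. The second component, with 20.5% of the variance, parted c635 at -26.02 from c646 at 32.05.

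Promoters are shown for 3 glucose-handling genes that were higher together and for Pip and Csn2, the genes with the largest differences downward and upward. Each sequence is the stretch of 250 bases before the gene's start, from RefSeq on build GRCm38.p6, written 5′ to 3′ on the gene's strand. Capitals mark ACGTG or GCGTG, the core of the hypoxia response element, on either strand in the first 3, and TTCNNNGAA, the core bound by STAT proteins, in the last 2; this core reads the same way on both strands.
Pdk1, chr2:71872974-71873223 (+): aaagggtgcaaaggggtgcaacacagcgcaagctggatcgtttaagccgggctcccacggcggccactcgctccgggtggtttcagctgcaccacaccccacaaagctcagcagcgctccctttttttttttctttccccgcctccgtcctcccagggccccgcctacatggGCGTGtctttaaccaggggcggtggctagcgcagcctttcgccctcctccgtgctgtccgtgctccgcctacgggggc
Hk2, chr6:82774455-82774704 (-): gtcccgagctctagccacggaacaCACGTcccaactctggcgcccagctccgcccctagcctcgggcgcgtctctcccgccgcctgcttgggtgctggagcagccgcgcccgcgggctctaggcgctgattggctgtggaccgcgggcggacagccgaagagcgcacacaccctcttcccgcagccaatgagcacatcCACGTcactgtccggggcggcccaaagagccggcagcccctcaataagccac
Slc2a1, chr4:119108495-119108744 (+): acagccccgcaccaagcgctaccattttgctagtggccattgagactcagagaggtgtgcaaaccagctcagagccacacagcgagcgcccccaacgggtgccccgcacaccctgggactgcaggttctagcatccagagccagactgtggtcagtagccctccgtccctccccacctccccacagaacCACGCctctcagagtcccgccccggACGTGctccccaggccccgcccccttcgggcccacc
Pip, chr6:41847299-41847548 (+): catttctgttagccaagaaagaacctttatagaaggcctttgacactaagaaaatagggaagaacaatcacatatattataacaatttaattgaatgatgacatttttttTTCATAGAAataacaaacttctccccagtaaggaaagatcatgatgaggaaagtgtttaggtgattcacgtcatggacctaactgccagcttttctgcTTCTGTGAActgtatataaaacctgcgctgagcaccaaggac
Csn2, chr5:87699426-87699675 (-): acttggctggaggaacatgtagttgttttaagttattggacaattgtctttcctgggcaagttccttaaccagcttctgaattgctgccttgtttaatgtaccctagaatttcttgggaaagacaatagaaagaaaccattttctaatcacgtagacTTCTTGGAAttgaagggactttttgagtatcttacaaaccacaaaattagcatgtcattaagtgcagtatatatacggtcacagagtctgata
A hypoxia core lay in 10 of 11 promoters of the called members of the hypoxia and glycolysis list (90.9%), in 11 of 15 of its members that were not called (73.3%) and in 38.6% of all 27025 promoters. The STAT core lay in 2 of 12 promoters of called milk protein genes (16.7%), in 2 of 13 of those not called (15.4%) and in 7.18% of all promoters; Pip holds 2 matches and was lower, while Csn2 holds 1 and was higher. These are matches of letters and do not show that a factor binds.

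Proteins of secretory glands were lower in passage 2. Of 16 members tested, 9 were lower and 1 was higher, 62.5% of the list against 6.31% of all genes. The median difference was -4.37, against 0.01 over all genes, and 9 further members were too dim to be tested. Pip, the prolactin-inducible protein secreted by several exocrine glands, was measured at 7.57, 6.61 and 6.96 in the passage 2 tumours c633, c635 and c646, against 13.06, 14.73 and 13.74 in the passage 1 tumours c558, c567 and c559. The groups lay far apart, and Pip was near the floor in passage 2, well above background in 2 of 3 tumours there. Its difference was -6.80 ± 0.37 (SE, adjusted p = 2.76e-06), and it was called in each fit without 1 tumour.

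Secretoglobins are small secreted proteins that include the androgen-binding protein subunits of mouse saliva and tears. The 7 named below were lower, though not all 7 belong to the list. Scgb2b26 had -1.33 (adjusted p = 0.0967) and Scgb3a1 -0.07 (0.713). Scgb1b2, Scgb1b24, Scgb2b24, Scgb1a1 and Scgb3a2 were too dim to be tested. Scgb2b20, a beta-type subunit gene, stood at 10.99, 11 and 9.76 in c633, c635 and c646, against 14.70, 16.47 and 15.75 in c558, c567 and c559, a difference of -5.14 ± 0.51 (SE, adjusted p = 0.000265). Scgb1b27, an alpha-type subunit gene, stood at 7.71, 6.69 and 7.56 in c633, c635 and c646, against 11.91, 12.73 and 13.43 in c558, c567 and c559, a difference of -5.56 ± 0.61 (SE, adjusted p = 0.000573). No passage 2 tumour reached the lowest passage 1 tumour for either gene, and Scgb1b27 was well above background in 2 of 3 passage 2 tumours. Scgb2b2, Scgb2b27, Scgb1b30, Scgb1b3 and Scgb1b20 had differences from -5.13 to -3.68, and the 7 were called in each fit without 1 tumour. Within each type, alpha (Scgb1b) or beta (Scgb2b), these genes are close copies whose probes can read each other's RNA. The 7 genes are therefore not independent. A second probe gave -3.54 for Scgb2b27 and -0.86 for Scgb1b30.

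The demilune cell proteins Dcpp1 and Dcpp3, secreted by salivary glands, varied more. Dcpp3 stood at 11.04, 6.34 and 6.72 in c633, c635 and c646, against 12.67, 17.37 and 13.39 in c558, c567 and c559. Tumour c633 lay between its own group and passage 1, c567 stood above all others, and in passage 2 both Dcpp genes were well above background in 1 of 3 tumours. The difference of -6.13 ± 1.35 (SE, adjusted p = 0.0201) had an adjusted p of 0.0933 without c635, 0.0749 without c646 and 0.0855 without c567; Dcpp1, a close copy, differed by -5.68 ± 1.22 and its call ended without the same tumours. The 1 higher member was Lcn10, a lipocalin, with a difference of 1.05 (adjusted p = 0.00686), well above background in 3 of 3 passage 2 tumours and in 1 of 3 passage 1 tumours.

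**Figure D1:**
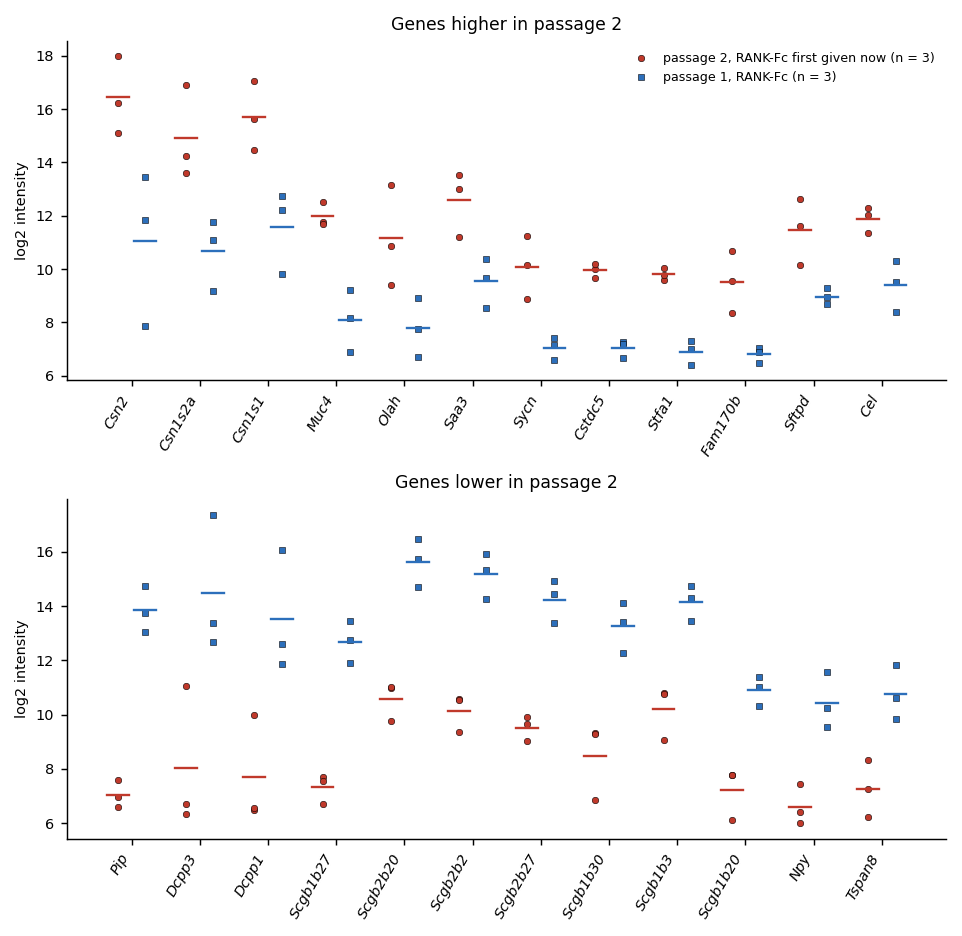
Log2 intensity (y axis) of the 12 genes with the largest called difference in each direction (x axis), 1 point per tumour, with passage 2 tumours first given RANK-Fc as red circles left of passage 1 RANK-Fc tumours as blue squares and the group mean as a bar (n = 3 each). The 24 genes were chosen as called and without overlap between the groups; the caseins and the Dcpp genes spread widely within a group, while Pip, Stfa1 and Cstdc5 do not.

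Milk protein genes were higher as well. Of 32 tested, 12 were higher and 1 was lower, 40.6% of the list against 6.31% of all genes, with a median difference of 0.50. The caseins, the main proteins of milk, carried the largest differences and also the widest spread. Csn2, beta-casein, stood at 15.09, 16.24 and 17.98 in c633, c635 and c646, against 11.84, 7.86 and 13.46 in c558, c567 and c559. All 3 passage 2 tumours lay above passage 1, but passage 1 alone spanned more than 5 log2 units. The difference was 5.18 ± 1.23 (SE, adjusted p = 0.027), and it was no longer called without c635 (0.0866), c646 (0.0979), c558 (0.0515) or c567 (0.0958). Csn1s1, alpha-S1-casein, stood at 14.45, 15.64 and 17.04, against 12.23, 9.80 and 12.75, in the same order of tumours; its difference of 3.93 ± 0.81 (SE, adjusted p = 0.0148) was not called without c635, c646 or c567, with adjusted p of 0.0513, 0.051 and 0.0666. For Csn1s2a, another calcium-sensitive casein, the difference of 4.0 ± 1.06 (adjusted p = 0.0439) was called in 1 of the 6 fits, that without c633.

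Other milk genes rested less on single tumours. Plin2, the coat protein of lipid droplets in milk-secreting cells, stood at 14.82, 15.79 and 14.86 in c633, c635 and c646, against 14.16, 13.56 and 13.35 in c558, c567 and c559, a difference of 1.43 ± 0.20 (SE, adjusted p = 0.00217). Slc30a2, the zinc transporter that loads milk, differed by 0.97 ± 0.14 (adjusted p = 0.00251). Saa3, an acute phase protein also made by mammary epithelium, stood at 11.20, 13.53 and 13.00, against 10.39, 8.56 and 9.68 in the same order, and differed by 2.98 ± 0.52 (adjusted p = 0.00716). All 3 were called in each fit without 1 tumour. So was the one lower member, Aqp5, a water channel, at -1.14 ± 0.17 (adjusted p = 0.00333); a second probe gave -0.89. Cel, the bile salt-stimulated lipase of milk, differed by 2.33 ± 0.46 (adjusted p = 0.012, and 0.0634 without c567). The count of higher milk protein genes was 12 without c633, 6 without c635, 4 without c646, 7 without c558, 3 without c567 and 8 without c559.

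Among 25 genes of milk lipid synthesis, 3 were higher and none was lower, a share of 12% against 6.31% of all genes, with a median of 0.23. Olah, the thioesterase that ends chain growth at the medium-chain fatty acids of milk, stood at 9.41, 10.87 and 13.17 in c633, c635 and c646, against 8.90, 6.72 and 7.77 in c558, c567 and c559, a difference of 3.02 ± 0.76 (SE, adjusted p = 0.0357). Acaca, acetyl-CoA carboxylase, differed by 0.72 ± 0.19 (adjusted p = 0.0455) and Lpin1, a phosphatidate phosphatase, by 0.49 ± 0.12 (0.0352). None of the list was called without c635, c646, c567 or c559. The upstream regulators did not move as one. Of 15 genes of prolactin signalling, STAT5 and alveolar fate, none was higher and 2 were lower (13.3%, against 4.01% of all genes). These were the growth hormone receptor Ghr at -0.84 ± 0.13 (adjusted p = 0.00453; a second probe gave -0.56), called in each fit without 1 tumour, and Socs2, a feedback inhibitor of growth hormone and prolactin signalling, at -1.22 ± 0.27 (0.021), whose call ended in 5 of those 6 fits, all but that without c567. Elf5, the transcription factor of alveolar cells, had a difference of 0.59 ± 0.17 (adjusted p = 0.0591).

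Genes of hypoxia and glycolysis were higher. Of 28 members tested, 12 were higher and none was lower, 42.9% of the list against 2.3% of all genes higher. The median difference was 0.62, and 24 of the 28 had a positive difference, against 51.5% of all genes. Pdk1, the kinase that blocks entry of pyruvate into mitochondria, stood at 9.32, 9.49 and 9.57 in c633, c635 and c646, against 8.51, 8.28 and 8.44 in c558, c567 and c559, a difference of 1.00 ± 0.13 (SE, adjusted p = 0.00192). Ndrg1, a gene induced by hypoxia and in differentiation, stood at 13.79, 13.68 and 14.34, against 11.72, 11.58 and 12.06 in the same order, a difference of 2.10 ± 0.29 (adjusted p = 0.00207). Hexokinase 2, Hk2, stood at 9.93, 9.96 and 10.36, against 9.24, 9.17 and 8.92, a difference of 0.96 ± 0.16 (adjusted p = 0.00517). For each of these genes the passage 2 tumours were close together and above all passage 1 tumours, and the call held in each fit without 1 tumour and with the slide row as a term (adjusted p = 0.0101, 0.0111 and 0.0128 for Pdk1, Ndrg1 and Hk2). The glucose transporter Slc2a1 stood at 12.63, 12.45 and 12.97, against 11.49, 11.40 and 11.58, and differed by 1.16 ± 0.21 (adjusted p = 0.00924, and 0.0549 without c558).

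The other called members were the angiogenic factor Vegfa (1.49), the vasodilator peptide Adm (2.08), Ankrd37 (1.70), the collagen prolyl hydroxylase P4ha2 (1.24), the histone demethylase Kdm3a (0.61) and the glycolytic enzymes Pgk1 (0.98), Pgam1 (0.71) and Gapdh (0.50). Not every target of the pathway followed: the carbonic anhydrases Car9 and Car12 had differences of -0.34 (adjusted p = 0.504) and -0.71 (0.0711), and lactate dehydrogenase Ldha had 0.27 (0.376). The number called was 8 without c633, 7 without c635, 8 without c646, 3 without c558, 9 without c567 and 6 without c559. The mean level of the list was 12.11, 12.27 and 12.29 in c633, c635 and c646, against 11.49, 11.58 and 11.41 in c558, c567 and c559, with no overlap.

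**Figure D2:**
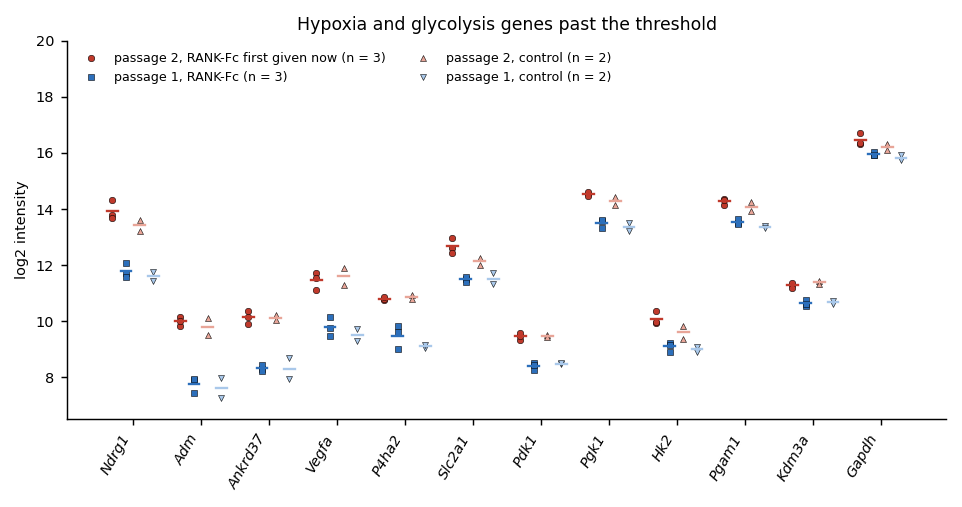
Log2 intensity (y axis) of the 12 called members of the hypoxia and glycolysis list (x axis), 1 point per tumour and a bar at the group mean, for passage 2 tumours first given RANK-Fc, passage 1 RANK-Fc tumours, passage 2 controls and passage 1 controls from left to right. The passage 2 tumours lie above the passage 1 tumours for each gene with RANK-Fc, and the controls without RANK-Fc are ordered the same way.

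Some markers of luminal progenitors and of hormone-sensing luminal cells were lower, while most were not called. Of 15 luminal progenitor markers, 5 were lower, against 4.01% of all genes, and none was higher. The other 10 were not called, 6 of the 15 had positive differences of up to 1.31 (Ly6a), and the median was -0.45. Itgb3, the integrin CD61 used to sort progenitors, stood at 9.44, 8.94 and 9.53 in c633, c635 and c646, against 10.74, 11.47 and 11.47 in c558, c567 and c559, a difference of -1.89 ± 0.27 (SE, adjusted p = 0.00244); a second probe gave -0.68. Hey1, a target of Notch, stood at 10.91, 8.96 and 10.20, against 11.88, 12.09 and 12.24, a difference of -2.08 ± 0.37 (adjusted p = 0.00801). Both were called in each fit without 1 tumour, with no overlap between groups. The tetraspanin Tspan8, well above background in 2 of 3 passage 2 tumours, differed by -3.50 ± 0.66 (adjusted p = 0.0103, but 0.0519 without c635 and 0.0539 without c567), and the receptor tyrosine kinase Kit by -0.93 ± 0.20 (0.0197, but 0.091 without c635, 0.0896 without c567 and 0.0625 without c559).

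Of 13 hormone-sensing markers, 3 were lower (23.1%, against 4.01% of all genes), none was higher and 10 were not called, with a median of -0.19. Tbx3, a transcription factor of mammary development, stood at 7.01, 6.98 and 7.63 in c633, c635 and c646, against 8.34, 8.36 and 8.42 in c558, c567 and c559, a difference of -1.13 ± 0.20 (SE, adjusted p = 0.00734), called in each fit without 1 tumour. Foxa1, the pioneer factor of the oestrogen receptor, was well above background in 2 of 3 passage 2 tumours and differed by -1.15 ± 0.27 (adjusted p = 0.027) and Cited1 by -1.09 ± 0.26 (0.0296), and they lost their calls in 5 and 4 of those fits. The receptors themselves were not called: Esr1 had -0.11 (adjusted p = 0.799), Pgr -0.24 (0.326) and Prlr -0.17 (0.598). Of 15 luminal keratin and adhesion genes none was called, and the mean level of that list was 11.90, 11.74 and 11.76 in the passage 2 tumours, against 11.66, 11.56 and 11.76 in the passage 1 tumours. In such bulk samples, fewer cells of a type and less RNA per cell cannot be told apart.

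Tfap2b, 1 of 3 measured AP-2 transcription factors, graded across passage 2. It stood at 9.86, 8.16 and 6.48 in c633, c635 and c646, against 11.25, 11.54 and 11.45 in c558, c567 and c559, and was well above background in 2 of the 3 passage 2 tumours. All passage 2 tumours lay below passage 1, by very different amounts. Its difference was -3.09 ± 0.57 (SE, adjusted p = 0.00924), called in each fit without 1 tumour, while Tfap2a had 0.26 (0.367) and Tfap2c 0.14 (0.698).

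Signalling genes moved singly. Called genes made up 12% of the growth factor list and 23.5% of the Notch list. The shares were 14.3% of the BMP and TGF-beta list and 21.1% of the immediate early list, against 6.31% of all genes. Of 25 growth factor receptors and ligands 3 were lower, led by the ErbB ligand Nrg2 at -2.60 ± 0.22 (SE, adjusted p = 0.000147), which was well above background in 1 of 3 passage 2 tumours and differed by -0.42 on a second probe; Nrg1 (-1.18 ± 0.27, adjusted p = 0.0254) and Fgf1 (-1.0 ± 0.25, 0.0337) lost their calls in 4 and 5 of the 6 fits without 1 tumour. Of 17 Notch genes 3 were lower and 1 was higher, with the ligand Dll1 at -1.23 ± 0.14 (adjusted p = 0.000766). The ligand Tgfb2 (0.85 ± 0.14, adjusted p = 0.006) and the bone morphogenetic protein antagonist Chrdl2 (1.90 ± 0.21, 0.000595) were higher, 2 of 21 in their list, where Inhbb was lower. Oxtr, the oxytocin receptor of myoepithelial cells, was lower at -1.62 ± 0.27 (adjusted p = 0.00614). Its list did not move as one. Of 19 basal and myoepithelial markers, 3 were lower, Oxtr among them, and 1 was higher (21.1% called, against 6.31% of all genes). The list median was -0.06. Of 19 immediate early genes, 2 were higher and 2 lower: Atf3 (1.01 ± 0.16, adjusted p = 0.00453) and Myc (0.87 ± 0.15, 0.0063) against Nr4a1 (-1.25 ± 0.19, 0.00412) and Nr4a2 (-0.79 ± 0.21, 0.0435). All named in this paragraph except Nrg1, Fgf1, Inhbb and Nr4a2 were called in each fit without 1 tumour.

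Muc4, a membrane mucin that binds ErbB2, had the largest difference upward among the named genes that were called in each fit without 1 tumour. It stood at 11.75, 12.50 and 11.68 in c633, c635 and c646, against 9.23, 6.91 and 8.15 in c558, c567 and c559, a difference of 3.78 ± 0.36 (SE, adjusted p = 0.000265); a second probe gave 1.60. The stefin family genes Stfa1 and Cstdc5, cysteine protease inhibitors that are close copies of each other, were higher by 2.86 ± 0.30 and 2.86 ± 0.28 (adjusted p = 0.000391 and 0.000278). Npy, neuropeptide Y, was lower: it stood at 7.45, 5.99 and 6.39, against 10.23, 9.53 and 11.56, a difference of -3.66 ± 0.52 (adjusted p = 0.00248), and was well above background in 1 of 3 passage 2 tumours. Of the 24 genes with the largest called differences, 12 in each direction, 13 were called in each fit without 1 tumour (4 higher and 9 lower) and 17 with the slide row as a term.

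RANK itself was measured in this comparison too. Tnfrsf11a, the gene of RANK, stood at 12.31, 12.40 and 13.01 in c633, c635 and c646, against 11.86, 11.61 and 12 in c558, c567 and c559, so that all passage 2 tumours lay above passage 1. The difference was 0.74 ± 0.18 (SE, adjusted p = 0.027), and it was not called without c646 (0.0629), c558 (0.0854) or c567 (0.128). Tnfrsf11b, the gene of osteoprotegerin, had a difference of 0.17 ± 0.35 (adjusted p = 0.826) with overlapping groups, while Tnfsf11, which encodes the ligand, did not pass the filter on dim probes. No other gene of the 18 tested in the RANK pathway was called, so that the called share was 5.56%, against 6.31% of all genes. Of 21 NF-kB targets, 4 were higher (Ccl2, Csf1, Tnfaip2 and Tnfaip3, by 0.71 to 1.66), 19% against 2.3% of all genes. None of these targets was lower, and none was called without c635, c646, c558 or c567.

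**Figure D3:**
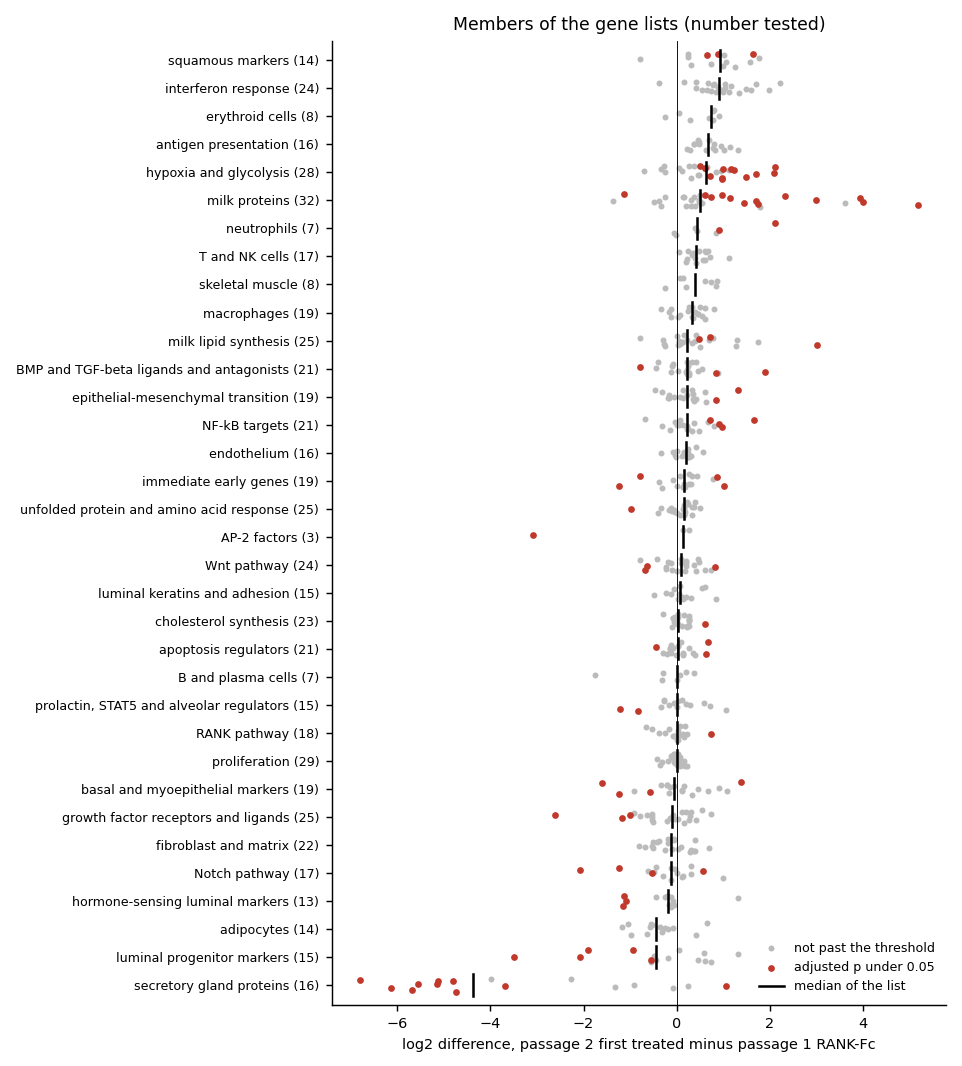
Log2 difference, passage 2 first-treated minus passage 1 RANK-Fc (x axis), of the tested members of each of 34 gene lists (y axis, number tested in brackets), with called genes in red, others in grey and the list median as a black bar. Secretory gland proteins lie far to the left with a median of -4.37, and hypoxia, milk protein and squamous lists have most of their called members on the right.

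Cell type lists showed that c646 and c635 each stood apart from c633. The mean level of fibroblast and matrix genes was 9.93, 9.66 and 11.64 in c633, c635 and c646, against 10.28 in the lowest and 10.62 in the middle passage 1 tumour, so that c646 was the highest and the other two were the lowest of the 6. Collagen gene Col1a1 showed the same, at 12.64, 12.52 and 15.53, against 13.67, 14.57 and 13.78. Skeletal muscle genes averaged 8.59 in c646, against 7.15 to 7.64 in the other tumours, erythroid genes 12.20 against 10.14 to 10.87, and squamous markers 9.58 against 7.78 to 8.43. None of the 22 fibroblast, 8 muscle or 8 erythroid genes tested was called. Squamous markers had 3 of 14 higher (Dmkn, Tgm1 and Sbsn, by 0.65 to 1.64), 21.4% against 2.3% of all genes. None of these markers was called without c646 or c567. The highest casein and Olah levels were also those of c646; the part of its other tissue in these levels was not tested.

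Immune lists divided passage 2 in another way. Interferon response genes averaged 10.16, 11.84 and 11.13 in c633, c635 and c646, against 10.48, 9.68 and 10.45 in c558, c567 and c559, and antigen presentation genes 12.37, 14.01 and 12.92, against 12.70, 12.20 and 12.63. Tumour c635 was the highest and c633 lay within passage 1. Of 24 interferon genes 23 had a positive difference, with a median of 0.92, and of 16 antigen presentation genes all 16 did, with a median of 0.66. None of either list was called. Macrophage genes averaged 10.06, 11.08 and 11.16, against 10.55, 10.31 and 10.53; none of 19 was called, but 10 were higher without c633. S100a8, a neutrophil protein that epithelium also makes, differed by 2.10 ± 0.51 (SE, adjusted p = 0.0314), and this call ended in each of the 6 fits without 1 tumour. Of 7 neutrophil genes, S100a8 and Padi4 were higher (28.6%, against 2.3% of all genes). Padi4 was called in 1 of those 6 fits, that without c633, and no neutrophil gene was called in the others. Adipocyte genes averaged 8.86, 8.97 and 8.03 in c633, c635 and c646, against 10.09, 8.52 and 8.67 in c558, c567 and c559, with c558 the highest. No gene was called in the lists of adipocytes, endothelium, T and NK cells or B and plasma cells; Ckm, the creatine kinase of muscle, was too dim to be tested. Of 29 proliferation genes none was called, with a median of 0.00, and 2 were lower without c633.

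**Figure D4:**
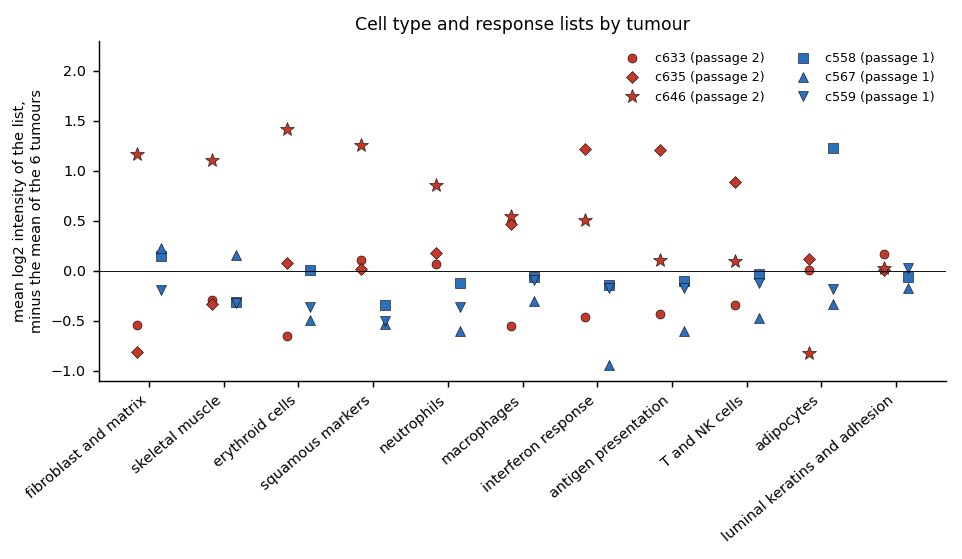
Mean log2 intensity of each cell type or response list minus its mean over the 6 tumours (y axis) by list (x axis), 1 marker per tumour, passage 2 in red left of passage 1 in blue. Tumour c646 stands above the others for fibroblast, muscle, erythroid, squamous and neutrophil genes, and c635 for interferon, antigen presentation and T cell genes.

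The same step of passage was measured without RANK-Fc in the controls, 2 of passage 2 against 2 of passage 1, which share no tumour with the comparison above but lie on some of the same arrays. There 469 genes were called (3.32%), 129 higher (0.913%) and 340 lower (2.41%). This count was 199 without c642, 11 without c641, 63 without c566, 99 without c564 and 0 with log ratios alone, and the counts of shared calls that follow rest on it. Across all genes the differences with and without RANK-Fc correlated at r = 0.80, and 886 of the 891 genes called with RANK-Fc (99.4%) had the same sign without it, against 74.4% of all genes. Of the called genes, 363 passed in both, which is 40.7% of those with RANK-Fc and 77.4% of those without, and none was called in opposite directions. No gene (0%) was called by limma for the difference between the passage effects, while 256 genes (1.81%) had an unadjusted p under 0.05. All 24 largest genes had the same sign without RANK-Fc, and 15 were called there.

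Single genes and lists had these values in both settings. Muc4 differed by 3.78 with RANK-Fc and by 3.84 without it (adjusted p without = 0.0021), and Pdk1 by 1.00 and 0.94 (0.0124). Medians of the hypoxia list were 0.62 with RANK-Fc and 0.56 without it, and those of the secretory list -4.37 and -4.23. Tnfrsf11a differed by 0.83 in the controls (adjusted p = 0.0653). Csn2 stood at 13.28 and 13.79 in passage 2 controls, against 9.91 and 9.12 in passage 1 controls, a difference of 4.23 (adjusted p = 0.195). Pip stood at 5.95 and 6.58 in passage 2 controls, against 9.69 and 12.48 in passage 1 controls, a difference of -4.87 (adjusted p = 0.000761). Pip lay near the floor in passage 2 in both settings, so the floor limits both of its differences, and they are not set against each other here. Medians of other lists lay on opposite sides of 0: interferon genes had 0.92 with RANK-Fc and -0.38 without it, with none called with RANK-Fc, and macrophage markers 0.34 and -0.24. The difference between these medians was not tested.

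The smallest p for a different passage effect belonged to Armcx3, a mitochondrial protein of the armadillo repeat family. It stood at 9.58, 9.68 and 10.16 in c633, c635 and c646, against 9.93, 10.08 and 10.28 in passage 1 under RANK-Fc, and at 8.75 and 8.62 in passage 2 controls against 10.12 and 10.33 in passage 1 controls. The passage difference was -0.30 with RANK-Fc and -1.51 without it (unadjusted p of the difference = 0.0002, not passing over all genes). Differences of Tfap2b, -3.09 with and -1.62 without RANK-Fc, gave an unadjusted p of 0.12.

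**Figure D5:**
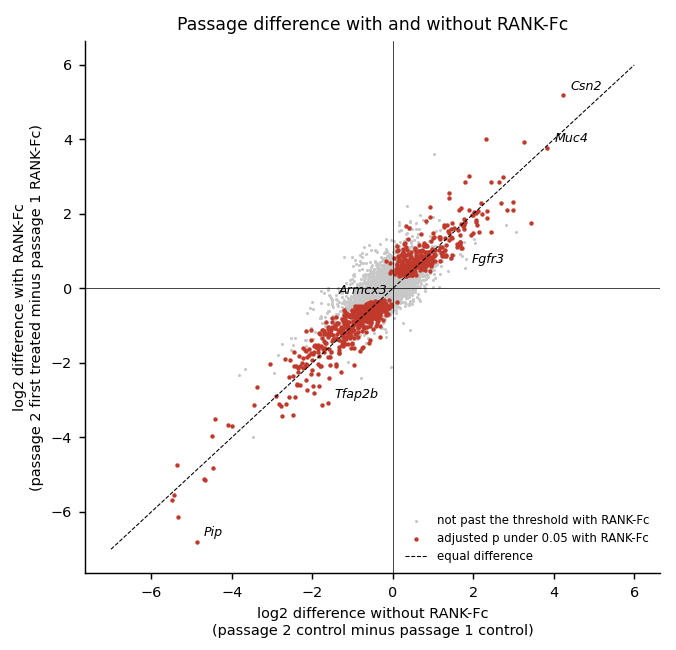
Log2 passage difference with RANK-Fc (y axis, passage 2 first-treated minus passage 1 RANK-Fc) against that without it (x axis, passage 2 control minus passage 1 control), 1 point per gene, genes called with RANK-Fc in red, and a dashed line at equal differences. The called genes lie along the line on both sides of 0 (r = 0.96 among them, 0.80 over all genes).

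Tumours given RANK-Fc in both passages, set against the same 3 passage 1 tumours, give values that share those tumours and are placed here side by side only. There 371 genes were called (2.63%), 114 higher (0.807%) and 257 lower (1.82%). All 3 tumours treated in both passages lay in row 1 of the slide and all 3 passage 1 tumours in row 2. Slide row and group therefore coincided in this comparison. No gene was called with the slide row as a term or with log ratios alone. The count was 81 without c607, 404 without c606 and 67 without c626, the tumours treated in both passages, and 72 without c558, 62 without c567 and 79 without c559. The secretoglobins that were lower by 3.68 to 5.56 in first-treated tumours had differences of -0.55 to -0.06 there. Pip had -6.80 in first-treated tumours and -2.20 in tumours treated in both passages (adjusted p = 0.0172), and Tfap2b had -3.09 and -0.67 (adjusted p = 0.569). For the tumours treated in both passages, Stfa1 had 2.61 (adjusted p = 0.00549), Npy -3.59 (0.00897), Itgb3 -2.06 (0.00786) and Muc4 2.72 (0.00786). Their hypoxia list had a median of 0.19, and Slc2a1 a difference of -0.05 (adjusted p = 0.924). The first-treated tumours were not tested directly against those treated in both passages.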

How the data were processed

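RNA of 16 tumours was labelled with Cy5 or Cy3 and hybridised in pairs to 8 arrays. The submitters' processing notes name Agilent Feature Extraction 10.7.3.1 as the image reader. The deposited files give median pixel intensity and local background intensity for each spot and colour, not normalised between arrays, per the file headers; processed intensity values and the log10 ratio of red over green, per the file headers; and other quality marks coded 0 or 1, per the file headers. A deposited table with 8 columns that match no label was not used. The log10 ratio correlated with red over green on each array (r from 0.848 to 0.933 over spots well above background).

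Of 62976 spots, 59305 were not controls and gave 55681 probes; 28026 probes were named through their accessions and RefSeq (GRCm38.p6, names and promoters only, since the array was designed on another build), and 27655 were not and were left out. Intensities were corrected by normexp with an offset of 50, then loess and Aquantile, on the log2 scale; spots marked as outliers (239 to 337 per array) were set to missing. A gene needed a probe well above background in every tumour of 1 of the 6 groups and values in 14 of the 16 channels, and its brightest such probe stood for it (25.8% of genes had several). The number of arrays limits precision.

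Tests used R 4.3.3, limma 3.58.1 and statmod 1.5.0. The fit was lmFit on 6 group means and dye, with both colours of an array tied by an intraspot correlation of 0.228. It was followed by eBayes (residual df 9) and Benjamini-Hochberg adjustment over 14131 genes at 0.05. The correlation was estimated by moments because earlier work on these data found limma's own estimate, here 0.375, biased upward in this design. Figures used Python 3.11.15 and matplotlib 3.10.9. Data simulated with known differences were used to check the fit.

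Named genes were the 12 largest called, non-overlapping genes in each direction, up to 4 members of each list with the smallest p, the RANK genes and defining markers, and the 4 genes with the smallest p in each direction without RANK-Fc and for the difference between passage effects; other members of the lists are named from their list. Members and lists were chosen with earlier results of these data known. Alternatives were other background, normalisation, filter, probe, dye, correlation, variance and sample choices, leaving out each tumour, and, chosen after seeing the data, the position row on the slide. Some results are not reported here.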

Additional observations from a re-analysis of the deposited data

Results flagged for a closer look

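Of the genes named by the rule, 3 had passage differences of opposite direction with and without RANK-Fc in every tumour. Hcar2, a receptor for hydroxy acids, had a difference of 0.491 with RANK-Fc and -0.562 without it (unadjusted p of the difference = 0.00171). Slc30a6, a zinc transporter, had -0.365 with RANK-Fc and 0.114 without it (unadjusted p = 0.00592). Cyp51, an enzyme of cholesterol synthesis, had 0.263 with RANK-Fc and -0.0654 without it (unadjusted p = 0.0646). In the controls, Slc30a6 stood at 8.53 and 8.42 in passage 2, against 8.31 and 8.41 in passage 1. Cyp51 stood at 7.44 and 7.44, against 7.54 and 7.48, so for both genes the control groups almost met. Hcar2 and Slc30a6 were named for having among the smallest p for that difference, so their small unadjusted p follow from that choice. The choice also favours opposite directions without fixing them. Armcx3, named by the same rule, had -0.303 with RANK-Fc and -1.51 without it. None of these differences between the passage effects passed over all genes in the limma fit.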

How the results depend on the processing

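No paired analysis was possible because the labels give neither replicate numbers nor the passage 1 tumour from which each passage 2 tumour grew. The 891 calls with RANK-Fc were 890 without background subtraction, 875 with Feature Extraction's processed signals, 912 under quantile normalisation, 873 with the mean of a gene's probes, 886 with a trended variance prior, 1044 with limma's correlation, 729 with independent channels and 628 with no dye term (210 higher). Median centring gave 410 (105 higher, 305 lower), only the compared tumours 443 (148 and 295), the position row, added after seeing the data, 316 (97 and 219), and log ratios alone 0 (1413 at an unadjusted p under 0.05). Leaving out 1 tumour gave 279 to 1056 (87 to 515 higher, 192 to 541 lower), lowest without c567 and highest without c633. Without RANK-Fc, the 469 calls were 267 with median centring, 0 with log ratios alone, 311 when dye was not modelled and 11 to 199 with 1 control left out. The difference between the passage effects gave 0 to 2 calls with 1 tumour left out, 2 without the passage 2 control c642 and 1 without the passage 1 control c564. For tumours treated in both passages, the 371 calls were 219 without background subtraction, 243 with processed signals, 77 with median centring, 133 with only the compared tumours, 0 with the position row or with log ratios alone, and 62 to 404 with 1 tumour left out. Over the named genes there were 3437 alternative values: 401 ended a call, 31 made one, and 15, of genes that were not called, changed direction; no called gene changed direction. Of 680 alternative list medians, 27 moved by more than the spread. The cause of these shifts was not tested. Median centring moved the median over all genes to -0.10. Dim probes limit Pip, Npy, Nrg2, Tfap2b, Tspan8, Foxa1, Scgb1b27, Scgb1b20 and the Dcpp genes, which were not well above background in all passage 2 tumours.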
